A study of Mus musculus with 9 samples.

Results

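Intraepithelial lymphocytes (IELs) of the intestine were compared with Type-1 cells of peripheral lymph nodes. Both come from C57BL/6 mice and are γδ T cells, a lineage that pairs γ with δ chains in its antigen receptor. The samples were chosen by title, 3 arrays titled IELs against 3 titled Type-1, which are 6 of the 9 arrays in the series. The remaining 3 arrays hold Naive-like γδ T cells, also from peripheral lymph nodes; they lent their spread to the fit and are given where they show on which side the third subset lay. Neither group carries a treatment or a modified gene in the labels, and the age of the mice is not stated there. IELs were shaken off opened gut in a warm solution of EDTA and a reducing agent and banded on Percoll, whereas lymph nodes were mashed and strained. Subset, tissue and isolation therefore differ together and cannot be told apart. For the gates only the antibodies are named, and the labels call the arrays biological replicates without stating whether each is 1 mouse or a pool. The p-values thus measure only the spread between these samples, which may be technical.

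γδ IELs live between the epithelial cells of the gut, where the integrin αE (CD103) anchors them to E-cadherin and where they keep granzymes ready for use. γδ T cells of the type 1 kind recirculate through lymphoid organs, depend on the transcription factor T-bet and make interferon-γ. Both are called effector subsets, so the comparison asks how effector cells of the same lineage part between an epithelium and a lymph node, with genes of cytotoxicity, receptors, residency and metabolism as the main classes.

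Expression was read as log2 values, scaled between arrays by the authors, for 22180 genes with a row of 1 gene symbol. All differences below are IELs minus Type-1 on this log2 scale, given with their standard error and n = 3 arrays a group, and a gene is said to have risen or fallen in IELs where limma's adjusted p was under 0.05. IEL arrays correlated with Type-1 arrays at 0.912 to 0.945 across genes, against 0.958 to 0.983 among IELs and 0.947 to 0.959 among Type-1 arrays. The labelled lineage could be checked only in part, since the constant segments of the γ and δ chains are not analysed here. The CD3 genes Cd3d, Cd3e and Cd3g lay between 10.7 and 12.3 on all 6 arrays, Ptprc (CD45) at 10.9 or above, and Cd4 at 3.81 or below. Of the genes that define Type-1 cells, Tbx21, which encodes T-bet, was at 7.67, 7.40 and 7.95 in Type-1 cells and at 7.55, 8.64 and 8.68 in IELs, so the groups overlapped; the Naive-like arrays lay at 5.89, 5.50 and 5.78. Il2rb, a chain of the interleukin 2 and 15 receptors, overlapped as well, and Ifng, the gene of interferon-γ, was higher in IELs (1.22 ± 0.28). Klrb1c, the gene of NK1.1, was higher in Type-1 cells, a call lost under most alternative settings. Cxcr3 was higher on every Type-1 array than on any IEL array without passing, and values of both are given below. By Tbx21 the Type-1 arrays stood above the Naive-like arrays but overlapped the IEL arrays. The genes that define IELs, Itgae, Cd8a, Ccr9 and Gzmb, were all higher in the arrays so labelled.

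Of the 22180 genes 1140 passed the test (5.14%), with 827 higher in IELs (3.73%) and 313 lower (1.41%). All 1140 had IEL and Type-1 arrays that did not overlap, which was so for 19.8% of all genes tested. The median difference was 1.44 among the genes that rose and -1.45 among those that fell, against -0.03 over all genes. A difference of at least 4-fold was reached by 216 genes that rose and 81 that fell, and a difference of at least 16-fold by 21 and 11. The count rested in part on single arrays: it was 724 without IEL replicate 3, 732 without IEL replicate 2 and 565 among the 6 arrays of the series whose descriptions lack a date code, which replicate 3 of every subset carries. In this bulk RNA, fewer cells of a type and less RNA per cell cannot be told apart.

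**Figure D1:**
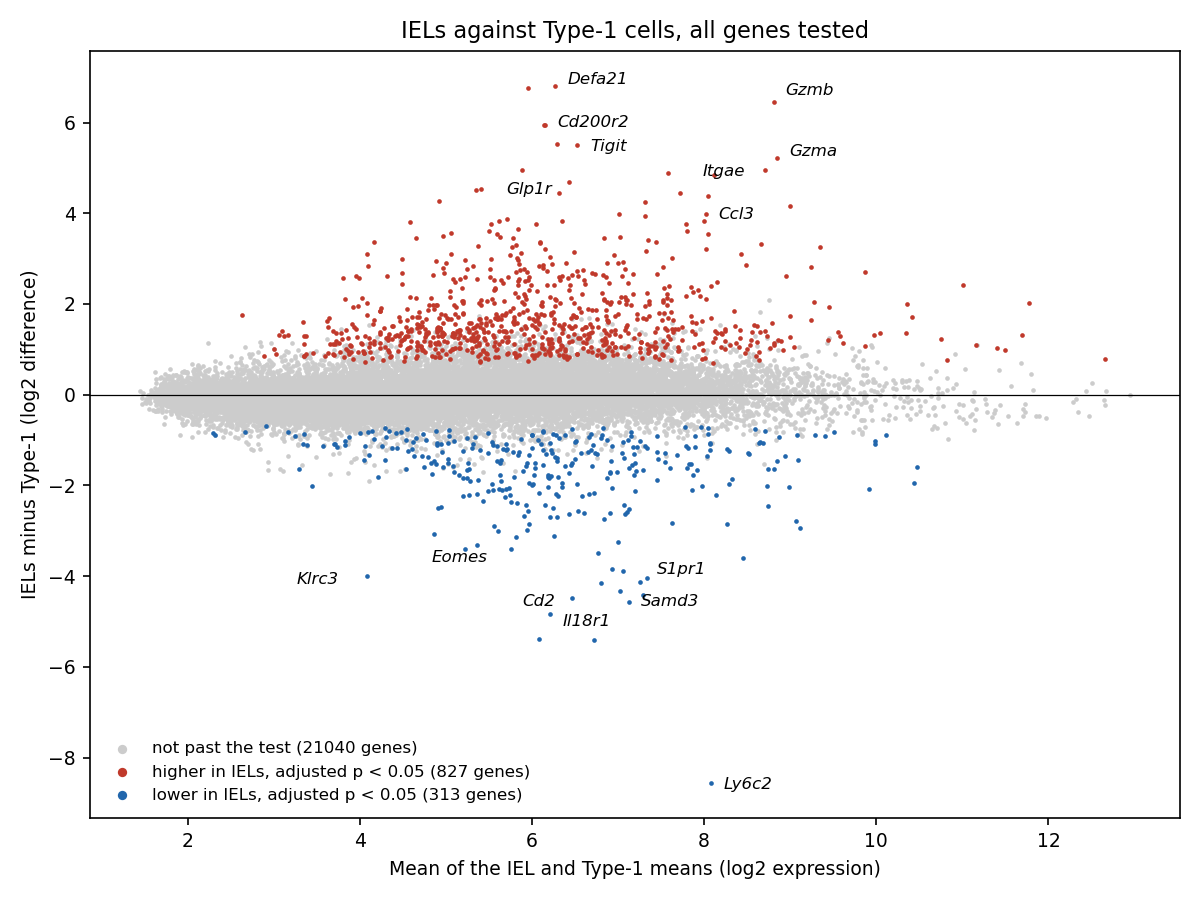
Each point is 1 of 22180 genes, placed by the mean of its IEL and Type-1 means (horizontal axis, log2 expression) and its difference between IELs and Type-1 cells (vertical axis, log2), with the 827 genes that passed the test as higher in IELs in red and the 313 lower in blue. The points that passed are more numerous above 0, but the single largest difference is downward, at -8.56 for Ly6c2.

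Ly6c2, which encodes the surface antigen Ly6C, parted the subsets most. It read 12.36, 12.38 and 12.35 on the Type-1 arrays and 3.90, 3.54 and 3.97 on the IEL arrays, a difference of -8.56 ± 0.20 or 377-fold (limma adjusted p = 3.1e-10). The Naive-like arrays lay between, at 9.81, 9.54 and 9.96. The 3 subsets did not overlap in this gene, and the Type-1 arrays were the most even. In the other direction Gzmb, the gene of the cytotoxic protease granzyme B, read 11.63, 12.34 and 12.17 on the IEL arrays and 5.82, 5.27 and 5.68 on the Type-1 arrays, 88.1-fold higher in IELs (difference 6.46 ± 0.36, limma adjusted p = 7.1e-07). Genes of very different kinds stood beside it among the 25 largest increases that were named. Car2, a carbonic anhydrase, read 9.11, 9.14 and 9.10 in IELs and 3.42, 2.92 and 3.18 in Type-1 cells, and its IEL arrays were the closest together of these. Glp1r, the receptor for the gut hormone GLP-1, rose by 4.70 ± 0.25, the kinase gene Dapk2 by 4.25 ± 0.35, Apol9b by 3.98 ± 0.31, the glycosyltransferase gene B4galnt4 by 3.84 ± 0.34 and the arrestin-domain gene Arrdc3 by 3.82 ± 0.56.

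The genes named as lower were of several kinds. Ms4a4c and Ms4a4b, which encode membrane proteins of the CD20 family, differed by -5.38 ± 0.25 and -4.04 ± 0.20, and the phospholipid flippase gene Atp8b4 by -5.41 ± 0.26. S100a6, a calcium-binding protein, read 5.14, 4.94 and 5.16 in IELs against 9.72, 9.47 and 9.30, and Cmah, the hydroxylase that makes N-glycolylneuraminic acid, read 5.46, 4.58 and 4.54 against 9.13, 9.10 and 9.36. In both genes the Naive-like arrays, at 9.03, 8.88 and 9.18 and 8.93, 8.72 and 9.27, lay with the Type-1 arrays of the same tissue. Dapl1 (-4.14 ± 0.34), Gramd3 (-3.88 ± 0.28), the cyclic nucleotide phosphodiesterase gene Pde2a (-3.85 ± 0.35), the complement regulator gene Cd55 (-3.31 ± 0.20), Erich1 (-3.11 ± 0.31) and the sodium and proton exchanger gene Slc9a7 (-3.41 ± 0.47) fell too. Samd3, whose function is little known, and Ctla2a, an inhibitor of cysteine proteases, fell by 4.58 ± 0.25 and 2.94 ± 0.29, but here the Naive-like arrays sat low, at 5.24, 4.95 and 5.22 for Samd3 and 6.53, 6.20 and 6.90 for Ctla2a. Sidt1 has a pair of rows on the array; the brighter fell (-3.61 ± 0.36) and the other did not pass (-0.26 ± 0.18). Of the 50 genes named for size, 49 passed under all 24 alternative settings; Slc9a7 did not among the arrays without the date code.

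**Figure D2:**
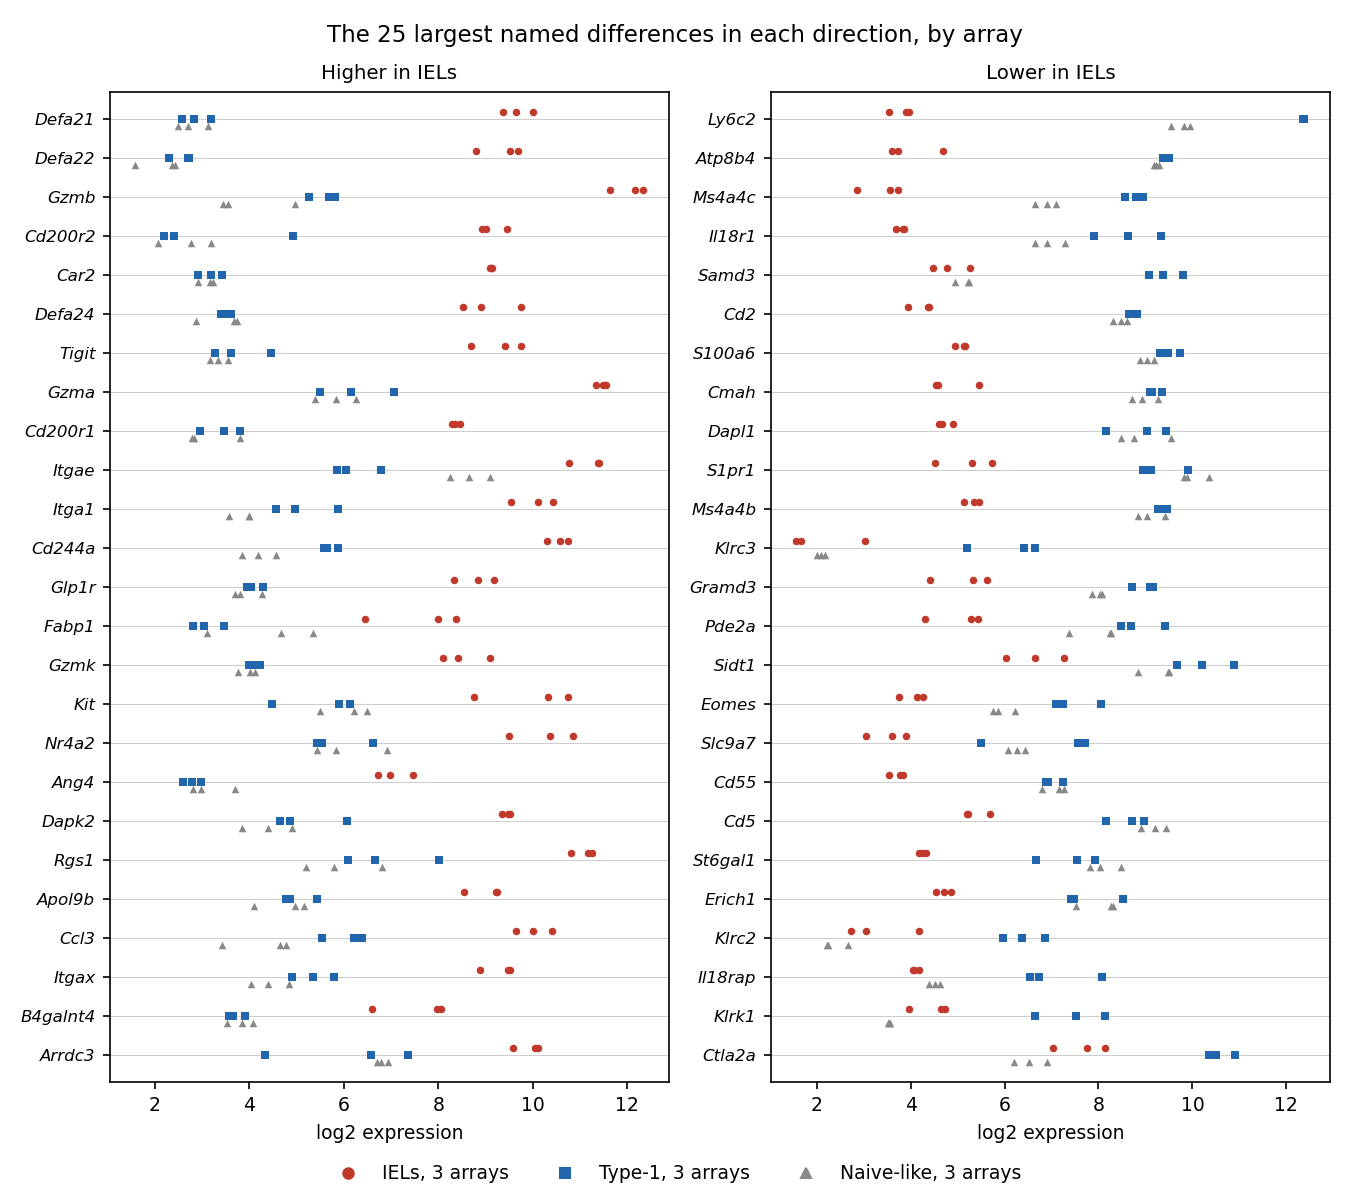
Log2 expression (horizontal axis) on each of the 9 arrays for the 25 largest named increases and the 25 largest named decreases in IELs, with circles for IELs, squares for Type-1 cells and triangles for Naive-like cells. For Ly6c2 the Type-1 squares lie farthest right and the Naive-like triangles between them and the IEL circles, whereas for Samd3 and Ctla2a the triangles lie on the low side.

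Genes of the gut epithelium and of Paneth cells, the antimicrobial cells at the crypt base, were prominent on the IEL arrays. Of 38 genes that mark gut epithelium 21 rose in IELs, none fell and 17 did not pass, with a median difference of 1.48. Fabp1, a fatty acid carrier of enterocytes, read 8.38, 7.99 and 6.45 in IELs, 3.46, 3.03 and 2.81 in Type-1 cells and 3.11, 5.35 and 4.67 in Naive-like cells. Fabp2 rose by 3.76 ± 0.36, the cell adhesion genes Cdh17 and Epcam by 2.80 ± 0.32 and 1.92 ± 0.21, the antimicrobial lectin genes Reg3b and Reg3g by 3.21 ± 0.38 and 2.95 ± 0.26, and the crypt gene Olfm4 by 2.98 ± 0.28. Other structural genes of epithelium did not pass, including Vil1 at 0.46 ± 0.25, Cdx2 at 0.05 ± 0.21 and Lct at 0.08 ± 0.23. Muc2, the goblet cell mucin, did not pass by its row of highest mean (0.47 ± 0.34) but did by another (2.13 ± 0.50). Of 9 Paneth cell genes 8 rose and Pla2g2a did not pass (0.05 ± 0.24). The α-defensin genes Defa21, Defa22 and Defa24 rose by 6.81 ± 0.25, 6.76 ± 0.29 and 5.54 ± 0.31, Ang4, an antimicrobial ribonuclease, by 4.27 ± 0.27 and the lysozyme gene Lyz1 by 2.06 ± 0.25. Defensin genes are near-identical copies, and the array's probes may not tell them apart.

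The mean over the 38 epithelial genes was 5.39, 6.17 and 5.45 on the IEL arrays, between 3.97 and 4.13 on the Type-1 arrays and between 3.96 and 4.12 on the Naive-like arrays. For the Paneth cell genes the IEL arrays lay at 6.81, 7.61 and 6.84 and the Type-1 arrays between 3.53 and 3.76. IEL replicate 2 was thus the highest in both lists, and no array of the other subsets approached any IEL array. These levels differ between the groups beside every difference given above and below, and their part in those was not tested. Few markers of further cell types passed. Because only 5.14% of all genes did, few or no calls in lists this short cannot show that such cells were absent or equal. None of 11 B cell, 5 plasma cell or 10 enteroendocrine and tuft cell genes passed, and of 16 myeloid genes only Itgam did (0.94 ± 0.21), at means of 4.81 and 3.87 and not without IEL replicate 1, IEL replicate 2 or Type-1 replicate 2. Cd79a and Ms4a1, which define B cells, were at 4.11 or below on all 6 arrays. Ighm, the μ heavy chain, was high in both subsets by its row of highest mean, at 9.96, 10.48 and 10.34 in IELs and 10.97, 10.88 and 11.24 in Type-1 cells. That row did not pass (-0.77 ± 0.21, limma adjusted p = 0.055), but did with the replicate number as a block (adjusted p = 0.041). Another Ighm row, at means of 6.62 in IELs and 7.82 in Type-1 cells, passed in a limma fit of all rows (-1.20 ± 0.28, adjusted p = 0.029). The remaining Ighm rows did not pass. Of 9 mast cell and basophil genes Kit, the receptor for stem cell factor, alone passed, reading 8.75, 10.33 and 10.75 in IELs and 4.48, 5.90 and 6.12 in Type-1 cells, while the mast cell proteases Mcpt1, Mcpt2, Mcpt4 and Cma1 were at 3.23 or below. Of 9 stromal and endothelial genes Pecam1 alone passed, lower in IELs (-1.73 ± 0.30). Cd8b1, a chain that γδ IELs commonly lack, read 8.88, 7.46 and 6.28 in IELs, a wide spread, and 8.14, 8.05 and 8.43 in Type-1 cells, and was among the 4 measured markers of αβ T cells, none of which passed.

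**Figure D3:**
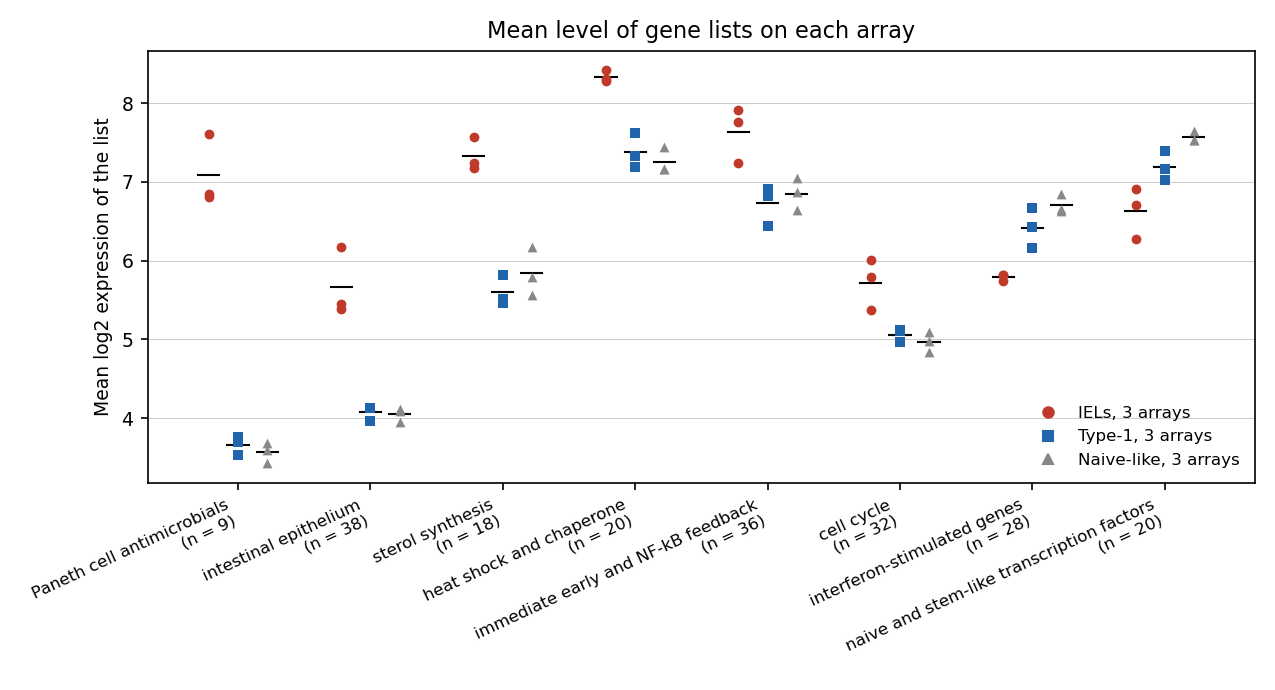
Mean log2 expression over the genes of 8 lists (vertical axis) on each array, with circles for IELs, squares for Type-1 cells, triangles for Naive-like cells and a black bar at the mean of the 3 arrays. The Paneth cell list separates IELs most, the sterol synthesis list sits between 7.18 and 7.57 in IELs and between 5.46 and 5.82 in Type-1 cells, and the interferon and naive lists lie lower in IELs than in either lymph node subset.

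Several granzymes were higher in IELs, while perforin and the factors of granule release did not pass the test. Of 18 measured granule genes 8 rose in IELs, Gzmm fell and 9 did not pass, with a median difference of 0.54 against -0.03 over all genes. Granzyme A (Gzma) read 11.49, 11.54 and 11.34 in IELs and 7.06, 5.50 and 6.16 in Type-1 cells, and granzyme K (Gzmk) 9.10, 8.41 and 8.09 against 3.98, 4.06 and 4.22. Type-1 arrays did not reach the level of any IEL array for these, and for Gzmk they matched the Naive-like arrays (4.0, 3.75 and 4.11). Granzyme C (Gzmc) rose from near the bottom of the scale, by 2.56 ± 0.34. Ctsc, the protease that activates granzymes, rose by 1.64 ± 0.29, the granule proteoglycan gene Srgn by 1.08 ± 0.18, and Serpinb9 and Serpinb6b, inhibitors of granule proteases, by 1.09 ± 0.27 and 1.16 ± 0.27. The call of Serpinb9 was lost under 11 of 24 settings, among them those without any 1 of the IEL arrays, and that of Serpinb6b under 6. Granzyme M (Gzmm) went the other way, reading 5.50, 5.34 and 5.05 in IELs, 8.01, 8.21 and 7.52 in Type-1 cells and 5.17, 5.45 and 5.45 in Naive-like cells, so that IELs lay at the Naive-like level. Perforin (Prf1) read 8.31, 8.68 and 8.54 against 8.03, 7.66 and 8.27 and did not pass (0.52 ± 0.27), nor did the granule proteins Nkg7 (0.55 ± 0.19) and Ctsw (0.20 ± 0.24) or the release factors Stx11, Stxbp2, Rab27a and Unc13d. Among the arrays without the date code 5 granule genes rose.

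Members of the TNF superfamily passed in both directions, with 5 of 21 higher, 4 lower and 12 not past the test (median -0.35). By sign alone 7 were higher and 14 lower. Fasl, the ligand of the death receptor Fas, rose by 2.49 ± 0.26 and Tnfsf10 (TRAIL) by 1.66 ± 0.25. The receptor genes Tnfrsf1b, Tnfrsf9 (4-1BB) and Fas rose by 2.36 ± 0.42, 2.04 ± 0.20 and 1.59 ± 0.33. Ltb, the membrane lymphotoxin that lymphoid tissue relies on, read 9.08, 9.03 and 8.54 against 10.83, 10.89 and 11.14 and fell (-2.07 ± 0.23), as did Tnfrsf26 (-2.04 ± 0.30), Tnfrsf25 (-1.45 ± 0.31) and the costimulatory receptor gene Cd27 (-1.29 ± 0.30). The count of members that fell was 2 without IEL replicate 1, 2 without IEL replicate 1 and Type-1 replicate 3 together, and 2 among the arrays without the date code. Tnf itself differed by -0.35 ± 0.20 and did not pass.

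**Figure D4:**
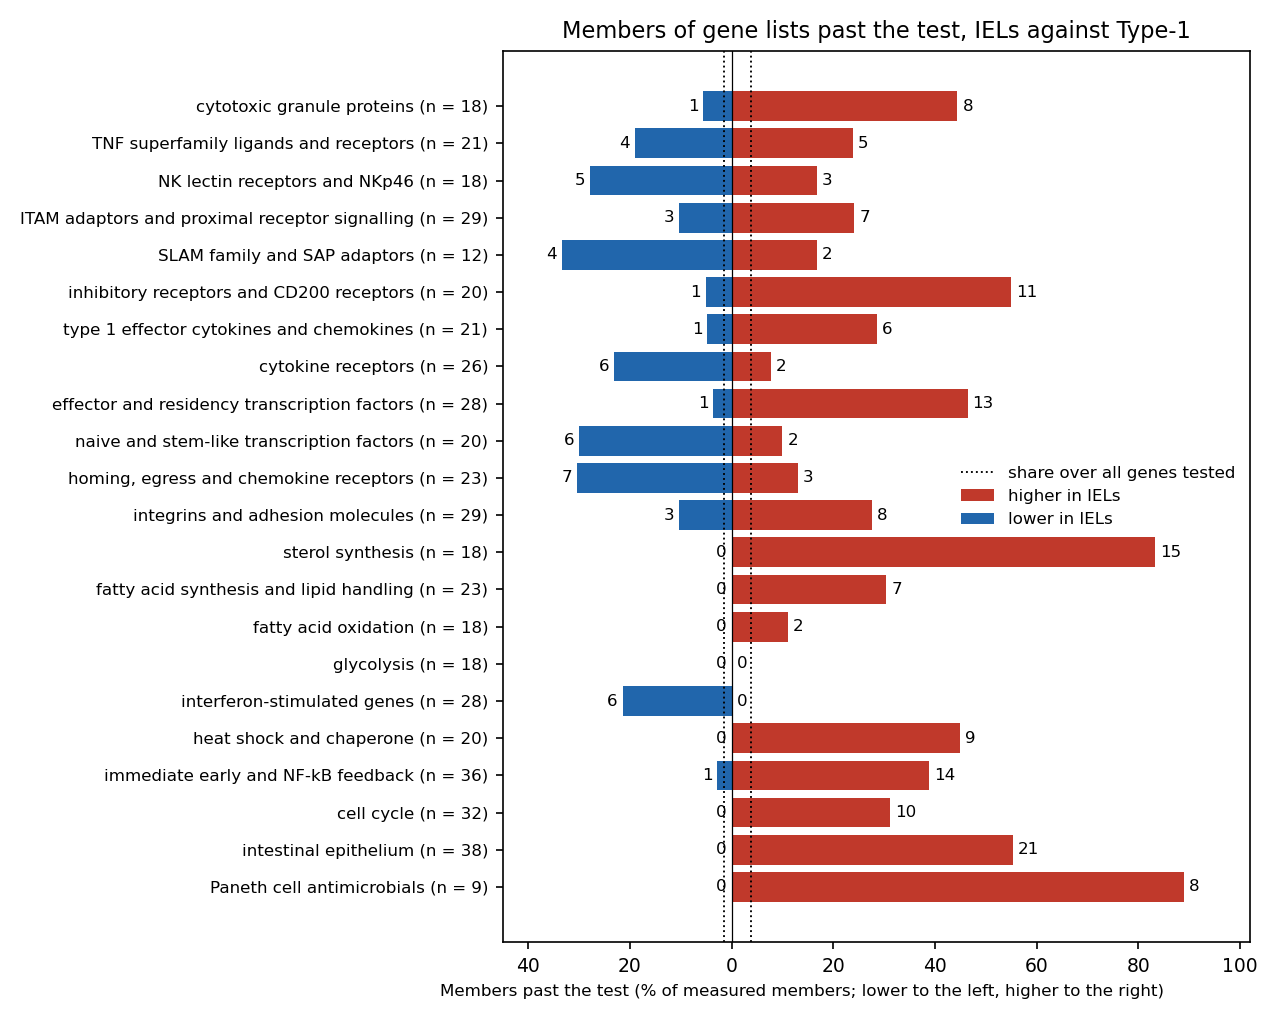
Percentage of the measured members of 22 gene lists (rows, with the number measured) that passed the test, higher in IELs to the right and lower to the left, with the number of genes at the end of each bar. Dotted lines mark the shares over all genes tested, 3.73% higher and 1.41% lower. Sterol synthesis (15 of 18) and Paneth cell genes (8 of 9) reach farthest right. None of 18 glycolysis genes passed, a list too short to be set apart from those shares.

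Receptors of the natural killer (NK) type did not share a direction. Of 18 measured lectin-like receptors and Ncr1, 3 rose, 5 fell and 10 did not pass (median -0.42). Those that fell were activating receptors in the main: Klrk1, which encodes NKG2D, read 4.65, 3.98 and 4.73 in IELs and 8.14, 6.65 and 7.53 in Type-1 cells; Klrc3 and Klrc2, members of the NKG2 family, differed by -4.0 ± 0.41 and -3.08 ± 0.35; Ncr1 (NKp46) by -2.20 ± 0.39; and Klrb1c, the antibody target NK1.1, by -1.26 ± 0.32, a call lost under 16 of 24 alternative settings. Klrc2 and Klrc3 resemble each other in sequence, so their probes may share signal. On the Naive-like arrays Klrc3 read 2.17, 2.10 and 2.01 and Ncr1 3.98, 4.51 and 4.17, no higher than IELs reached. Klrh1, reading 7.09, 5.95 and 6.10 against 3.16, 2.88 and 2.74, and Klra5, of the Ly49 family, reading 8.35, 8.95 and 9.36 against 7.92, 5.70 and 6.50, rose in IELs. Klrd1 (CD94), the partner chain of NKG2 receptors, rose by 1.23 ± 0.20 from an already high level. Klre1 read 9.46, 7.84 and 8.64 in IELs and 8.51, 8.75 and 8.41 in Type-1 cells, overlapping, but 2.75, 3.42 and 2.98 in Naive-like cells. Among the arrays without the date code 3 of these receptors fell.

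Among the adaptors that couple such receptors to kinases, a pair rose well above the Type-1 level. Fcer1g and Tyrobp, adaptors whose ITAM motifs recruit Syk and ZAP-70, read 11.14, 10.95 and 10.84 and 10.84, 10.32 and 9.79 in IELs against 7.52, 7.63 and 8.01 and 7.09, 7.18 and 6.71 in Type-1 cells. Hcst, the non-ITAM adaptor of NKG2D, was high in both and did not pass (-0.25 ± 0.24). The Naive-like arrays were lower again, at 4.94, 6.26 and 4.92 for Fcer1g and 4.39, 5.62 and 5.09 for Tyrobp. Of 29 genes for ITAM adaptors and proximal receptor signalling 7 rose, 3 fell and 19 did not pass (median 0.07). Lat2, an adaptor of non-T leukocytes akin to Lat, rose by 2.24 ± 0.21 while Lat did not pass (-0.29 ± 0.22). Plcg2, the phospholipase Cγ of B and NK cells, read 6.41, 7.67 and 7.92 against 4.59, 4.33 and 4.06, while Plcg1, its T cell counterpart, did not pass (-0.23 ± 0.34). The receptor-associated gene Trat1 rose by 3.11 ± 0.22, Zap70 by 1.05 ± 0.25 and Cd3g by 0.99 ± 0.23. Those that fell were surface regulators of T cell activation. Cd2, the receptor for CD48, read 3.94, 4.39 and 4.37 in IELs and 8.81, 8.66 and 8.64 in Type-1 cells, Cd5 read 5.20, 5.22 and 5.70 against 8.16, 8.72 and 8.98, and the costimulatory receptor Cd28 read 3.96, 4.09 and 4.79 against 6.14, 5.92 and 6.28. With the replicate number as a block 6 members fell and 8 rose, and with array weights 11 rose. Cd48, the ligand of both CD2 and CD244, did not pass (0.37 ± 0.29).

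SLAM receptors and their adaptors moved in both directions. Cd244a, which encodes 2B4, read 10.58, 10.75 and 10.30 in IELs and 5.58, 5.88 and 5.64 in Type-1 cells, and Sh2d1b1, the adaptor EAT-2 that binds such receptors, read 5.93, 7.07 and 7.17 against 3.37, 3.52 and 2.76. The other adaptor, Sh2d1a (SAP), fell, from 8.08, 7.21 and 7.39 in Type-1 cells to 5.02, 4.71 and 4.87 in IELs. Slamf6 (-2.84 ± 0.39), Ly9 (-2.01 ± 0.24) and Cd84 (-1.16 ± 0.21) fell too, and Naive-like cells lay with Type-1 cells in these, at 10.05, 9.82 and 10.55 for Slamf6. In all 2 of 12 members rose, 4 fell and 6, including Slamf7 (0.47 ± 0.22), did not pass (median 0.06).

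**Figure D5:**
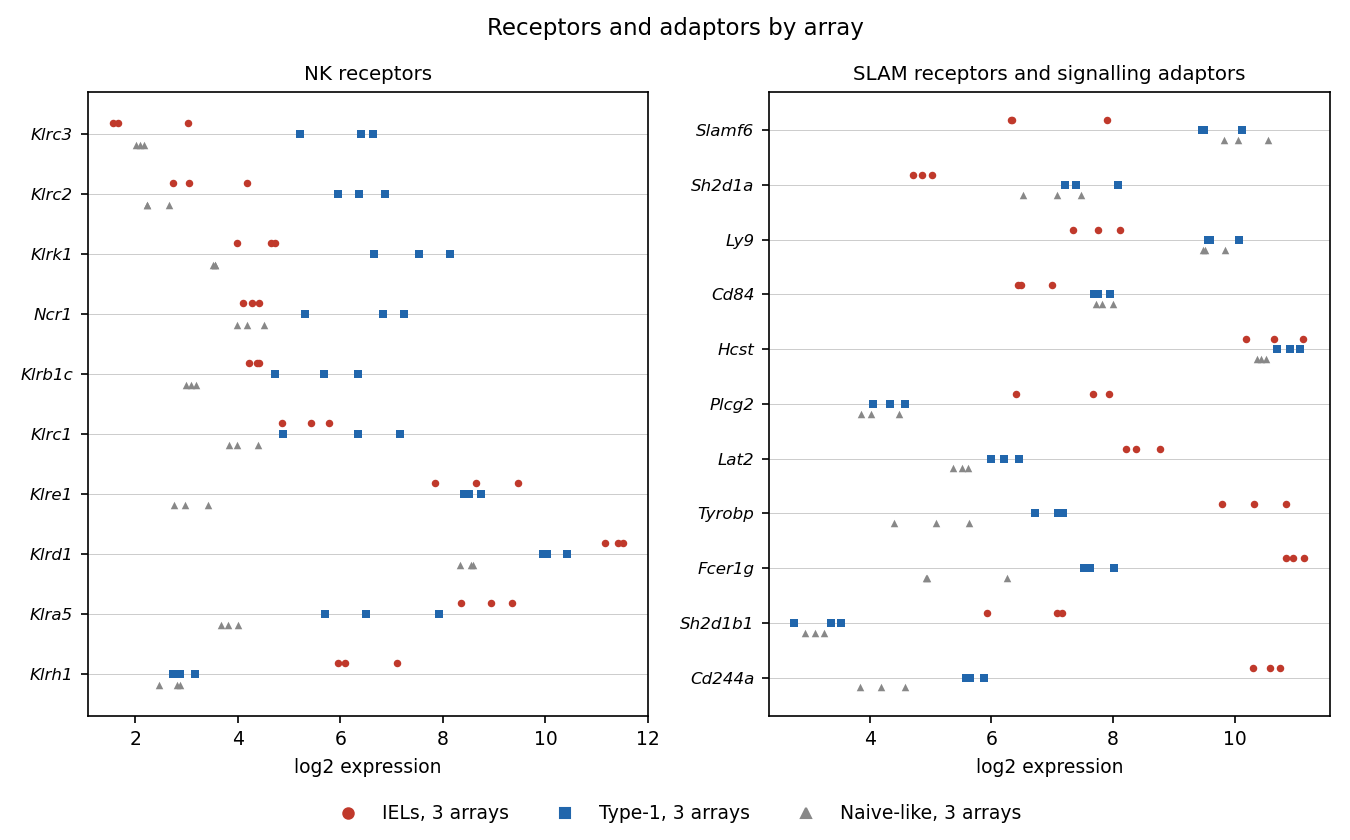
Log2 expression (horizontal axis) on each of the 9 arrays for 10 NK receptors (left) and 11 SLAM receptors and signalling adaptors (right), with circles for IELs, squares for Type-1 cells and triangles for Naive-like cells. Klrc3, Klrc2, Klrk1 and Ncr1 stand out in Type-1 cells, Cd244a, Sh2d1b1, Fcer1g, Tyrobp, Lat2 and Plcg2 in IELs, and Klrc1, Klre1 and Hcst overlap between these subsets.

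Many genes in a list of inhibitory receptors and CD200 receptors were higher in IELs. The list takes in CD200 receptors whether inhibitory or not, and Cd200, which encodes the ligand. Of 20 genes 11 rose, Btla fell (-2.13 ± 0.31) and 8 did not pass, with a median of 1.29. Tigit, an inhibitory receptor for the poliovirus receptor CD155, read 8.69, 9.41 and 9.74 in IELs and 3.27, 3.61 and 4.45 in Type-1 cells, and the related Cd96 rose by 1.32 ± 0.19. Cd200r1, the inhibitory receptor for CD200, read 8.46, 8.29 and 8.34 against 3.80, 2.94 and 3.45. Its relatives Cd200r2 and Cd200r4 rose by 5.96 ± 0.57 and 2.57 ± 0.36; for Cd200r2, Type-1 replicate 1, 2 and 3 read 4.92, 2.20 and 2.41, so 1 array stood above the other two. The checkpoint genes Ctla4 and Lag3 rose by 3.0 ± 0.32 and 2.11 ± 0.24, Cd101 by 1.79 ± 0.30, and Cd200, Cd160 and Havcr2 (TIM-3) by 1.34, 1.26 and 1.13. Pdcd1, the gene of PD-1, did not pass (0.29 ± 0.41), nor did Lilrb4a (2.08 ± 0.61), which passed with the replicate number as a block (limma adjusted p = 0.021). The activating relatives Cd226 and Crtam differed by -0.69 ± 0.19 and -0.74 ± 0.33 and did not pass.

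The genes of the proteins that the study's antibodies detect were read at the level of RNA only. Of 20 such genes 8 rose (Gzmb, Tigit, Gzma, Cd8a, Ctla4, Entpd1, Ikzf2 and Nt5e) and Cd5 and Klrb1c fell. Cd8a, the α chain of the CD8 coreceptor, read 9.31, 9.96 and 9.57 in IELs and 6.63, 4.98 and 6.37 in Type-1 cells. Ikzf2, the gene of Helios, rose by 1.73 ± 0.29. Cxcr3, a chemokine receptor of type 1 cells, read 8.05, 7.96 and 7.68 in IELs and 8.53, 8.56 and 8.65 in Type-1 cells; the groups did not overlap but the gene stood at an adjusted p of 0.05 in limma and was not counted. Foxp3, Gata3, Ccr6, Tgfb1, Cd4, Pdcd1, Ptprc, Cd3e and Tbx21 did not pass either.

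Inflammatory chemokines were among the secreted proteins that rose. Ccl3, Ccl4 and Ccl5, which attract leukocytes, rose by 3.97 ± 0.36, 2.32 ± 0.34 and 0.80 ± 0.19, Ccl5 from a level close to the top of the scale in both subsets. Tgfb3, a transforming growth factor, read 7.06, 8.23 and 8.49 in IELs and 3.95, 3.87 and 4.70 in Type-1 cells, while Tgfb1 did not pass (0.07 ± 0.21). Ifng read 8.67, 8.03 and 7.96 against 7.55, 6.47 and 6.99; its call was lost under 9 of 24 settings, with limma adjusted p = 0.077 without IEL replicate 1, 0.056 without IEL replicate 2, 0.093 without Type-1 replicate 2 and 0.054 without Type-1 replicate 3. The gene of Cxcl10, an interferon-induced chemokine, rose by 1.29 ± 0.28. Il4 fell, at low levels, by 1.03 ± 0.24, a call lost when any 1 of the IEL arrays, Type-1 replicate 2 or Type-1 replicate 3 was left out. Of 21 genes 6 rose, 1 fell and 14 did not pass, among them Xcl1 (0.36 ± 0.23), Csf2 (0.70 ± 0.28), Il17a (0.06 ± 0.20) and Il22 (0.06 ± 0.20). The number that rose was 3 among the arrays without the date code and 3 without Type-1 replicate 2.

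Cytokine receptors leaned the other way, with 6 of 26 lower, 2 higher and 18 not past the test (median -0.23). Both chains of the interleukin 18 receptor fell: Il18r1 read 3.86, 3.69 and 3.84 in IELs and 7.90, 8.63 and 9.33 in Type-1 cells, and Il18rap 4.18, 4.08 and 4.06 against 6.73, 6.53 and 8.08. For Il18rap the Naive-like arrays, at 4.51, 4.39 and 4.63, were near IELs, whereas for Il18r1 they were at 6.65, 7.28 and 6.91. Il7r, the receptor of the survival cytokine interleukin 7, fell by 2.79 ± 0.23, Il6ra by 2.36 ± 0.23, and the interleukin 10 receptor chains Il10ra and Il10rb by 1.69 ± 0.22 and 1.30 ± 0.22. Il12rb2, the inducible chain of the interleukin 12 receptor, rose, reading 7.32, 8.54 and 8.27 against 4.74, 5.49 and 5.87, and Il21r rose by 1.09 ± 0.25, a call lost without IEL replicate 2 or 3 or Type-1 replicate 1 or 2. Il2rb did not pass (-0.55 ± 0.33), nor did the interferon receptors Ifnar1 (-0.27 ± 0.36) and Ifngr1 (0.28 ± 0.25).

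Factors of effector function and residency were mostly higher in IELs where they passed. Of 28 factors tied to effector function and tissue residency 13 rose, Eomes fell and 14 did not pass (median 0.90). The 3 genes of the NR4A family, which antigen receptor signals induce, rose, Nr4a2 from 6.61, 5.43 and 5.54 to 9.49, 10.37 and 10.85 and Nr4a1 and Nr4a3 by 2.87 ± 0.36 and 2.75 ± 0.52. Prdm1, the gene of Blimp-1, rose by 2.60 ± 0.25, Bhlhe40 by 2.44 ± 0.33, Nfil3 by 2.23 ± 0.30, Litaf by 2.74 ± 0.29 and the interferon regulatory factors Irf4 and Irf8 by 2.13 ± 0.19 and 1.85 ± 0.34. Another, dimmer row of Irf8 did not pass (0.093 ± 0.222). Runx3, a factor of CD8 T cells and IELs, rose by 1.12 ± 0.25. Eomes, the relative of T-bet, read 3.76, 4.13 and 4.26 in IELs, 7.24, 7.10 and 8.05 in Type-1 cells and 5.75, 5.87 and 6.21 in Naive-like cells. These 2 T-box factors hence differed unequally between the subsets, since Tbx21 did not pass (0.62 ± 0.29). Id2 (0.30 ± 0.21), Gata3 (-0.21 ± 0.25) and Zbtb16 (-0.17 ± 0.45) did not pass, and Zeb2 and Zfp683 are not analysed here.

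Among 20 factors of naive and stem-like T cells 6 fell, 2 rose and 12 did not pass (median -0.30). Lef1 read 5.41, 5.66 and 6.25 in IELs, 8.11, 8.35 and 8.74 in Type-1 cells and 9.21, 9.20 and 9.41 in Naive-like cells, so IELs were lowest and Naive-like cells highest. Myb fell by 2.64 ± 0.32, the chromatin organizer Satb1 by 2.52 ± 0.29, Klf3 by 1.72 ± 0.30, Klf2, which drives S1pr1, by 1.58 ± 0.32, and Bach2 by 1.32 ± 0.29. Another, dimmer row of Myb did not pass (-0.57 ± 0.25). Tox and Bcl6 rose, by 1.49 ± 0.31 and 0.88 ± 0.23; neither passed without IEL replicate 2, IEL replicate 3 or Type-1 replicate 1, and Bcl6 was lost under 14 of the 24 settings. Foxo1 (0.11 ± 0.21), Bcl11b (-0.29 ± 0.26) and Ets1 (0.36 ± 0.21) did not pass, and Tcf7 is not analysed here.

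Some receptors that lead lymphocytes out of and into lymphoid tissue fell in IELs, and a few rose. S1pr1, the sphingosine phosphate receptor for egress, read 4.53, 5.31 and 5.74 in IELs and 8.95, 9.11 and 9.91 in Type-1 cells, and S1pr4 fell by 1.51 ± 0.18. Ccr7 (-2.22 ± 0.29), Cxcr4 (-1.86 ± 0.35), Cxcr5 (-1.50 ± 0.29), Ccr8 (-1.13 ± 0.25) and the oxysterol receptor gene Gpr183 (-2.08 ± 0.22) fell as well. Ccr9, which directs cells to the small intestine, read 6.99, 7.20 and 7.39 in IELs and 4.64, 4.96 and 4.74 in Type-1 cells but 7.26, 6.95 and 7.03 in Naive-like cells, so that the lymph node subsets stood on different sides. The lipid receptor genes Gpr55 and P2ry10 rose by 3.04 ± 0.29 and 1.45 ± 0.31. In all 7 of 23 members fell, 3 rose and 13 did not pass (median -0.47), among the last Cxcr6 (0.25 ± 0.23), Ccr6 (-0.11 ± 0.20) and Gpr15 (-1.13 ± 0.42).

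Integrins changed by chain. Of 29 genes for integrins and adhesion 8 rose, 3 fell and 18 did not pass (median -0.23). Itgae, the αE chain, read 10.76, 11.40 and 11.38 in IELs, 6.05, 5.85 and 6.78 in Type-1 cells and 8.26, 8.65 and 9.10 in Naive-like cells, so Type-1 cells were the lowest of the 3 subsets, while its partner Itgb7 was level between IELs and Type-1 cells and did not pass (0.01 ± 0.21). Itga1, the collagen-binding α1 chain, read 9.55, 10.11 and 10.42 against 4.56, 4.96 and 5.88, and Itgax (CD11c) 8.87, 9.47 and 9.52 against 5.34, 4.90 and 5.80. Itgav rose by 1.77 ± 0.30 on 1 of 2 rows. Itgal (LFA-1) and Itga4, which carry lymphocytes across vessel walls, fell by 2.10 ± 0.33 and 1.44 ± 0.36, and Icam2, a ligand of LFA-1, by 1.22 ± 0.21. The call of Itga4 was lost under 10 of 24 settings, among them those without IEL replicate 1 or 2, Type-1 replicate 2 or 3 or any 1 of the Naive-like arrays. Cdh1, the E-cadherin to which αE binds, read 7.71, 9.28 and 8.72 in IELs against 5.12, 4.75 and 5.47, on the brighter of 2 rows; it is also an epithelial gene, as is Epcam, and the epithelial means given above stood high on the same arrays. When arrays were normalized again by quantiles or cyclic loess 6 members fell. Of 9 genes listed with the Ly6 family 2 fell, Ly6c2 and Thy1, though Thy1 is not itself a Ly6 gene. Thy1 fell from 8.13, 8.42 and 8.22 to 6.04, 6.27 and 6.12, and Ly6e was level in both (-0.21 ± 0.23). 

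Enzymes and receptors of extracellular nucleotides were higher in IELs where they passed. Entpd1 (CD39) and Nt5e (CD73), which break ATP down to adenosine in sequence, read 6.33, 6.34 and 6.63 and 8.67, 9.62 and 9.77 in IELs against 3.69, 3.75 and 4.23 and 7.35, 8.11 and 7.97 in Type-1 cells. P2rx7, the ATP-gated channel, rose by 3.40 ± 0.28. The other 5 of 8 members did not pass. Of 8 regulators of G protein signalling, which shorten the signal of chemokine receptors, Rgs1 read 11.26, 10.81 and 11.17 in IELs and 8.02, 6.08 and 6.65 in Type-1 cells, Rgs2 rose by 2.62 ± 0.36 and Rgs16 by 1.0 ± 0.18, while Rgs19 fell by 0.88 ± 0.20, a call lost under 12 of the 24 alternative settings.

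Sterol synthesis was the list with the highest share of members that rose apart from the Paneth cell genes, 15 of 18, with 3 not past the test and a median of 1.57. The enzymes span the pathway from its early steps, Hmgcs1 (2.53 ± 0.45), Pmvk (0.87 ± 0.22) and Mvd (0.87 ± 0.22), through Fdps (2.66 ± 0.40), Fdft1 (1.59 ± 0.26) and Sqle (2.88 ± 0.45), to the late enzymes Lss (1.19 ± 0.26), Msmo1 (2.52 ± 0.31), Sc5d (2.01 ± 0.34) and Dhcr7 (1.36 ± 0.24). Cyp51, the lanosterol demethylase, read 7.46, 6.83 and 7.80 in IELs and 3.48, 3.82 and 4.19 in Type-1 cells. The regulators rose with them: Srebf2, the factor that drives the pathway, by 1.74 ± 0.32 and Insig1, its brake in the endoplasmic reticulum, by 2.61 ± 0.33. Mvk (0.39 ± 0.26), Ebp (0.22 ± 0.19) and Nsdhl (1.22 ± 0.42) did not pass. The list mean was 7.18, 7.24 and 7.57 on the IEL arrays. The part of the epithelial levels in this list was not tested. 

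Fatty acid genes followed in part, with 7 of 23 higher, none lower and a median of 0.26. The desaturase genes Fads1 and Fads2 rose by 2.87 ± 0.30 and 1.49 ± 0.29, the elongase gene Elovl6 by 2.60 ± 0.42, Dgat1, which makes triglyceride, by 3.02 ± 0.48, the lipid droplet gene Plin2 by 1.57 ± 0.20, the thioesterase gene Acot7 by 1.46 ± 0.21 and Fabp5 by 2.42 ± 0.46, on 2 of 4 rows. Fasn (0.68 ± 0.34), Acly (0.94 ± 0.34; at an adjusted p of 0.05 with the replicate block), Acaca (0.26 ± 0.26) and the regulator Srebf1 (0.46 ± 0.22) did not pass. Of 18 genes for fatty acid oxidation Hadh and Acadl rose, by 1.55 ± 0.36 and 1.45 ± 0.25; Hadh did not pass when any 1 of the IEL arrays, Type-1 replicate 1 or Type-1 replicate 2 was left out. None of 18 glycolysis genes passed, against 5.14% of all genes tested, with a median of 0.11. A list this short cannot show by its calls that these genes were level. The largest differences were those of Pdk1 (-0.81 ± 0.29), Tpi1 (0.75 ± 0.23) and Hk2 (0.52 ± 0.27).

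Interferon-stimulated genes were lower in IELs where they passed, 6 of 28, with none higher, 22 not past the test and a median of -0.42. Usp18, which dampens interferon receptor signalling, read 5.66, 5.53 and 5.61 in IELs and 8.59, 8.02 and 8.0 in Type-1 cells. The oligoadenylate synthetase genes Oasl2, Oas2 and Oas3 fell by 2.10 ± 0.22, 1.83 ± 0.27 and 1.28 ± 0.27, the RNA-binding gene Ifit1 by 1.81 ± 0.25 and Bst2, which tethers virions, by 0.94 ± 0.19. Isg15 (0.16 ± 0.22), Irf7 (-0.63 ± 0.27), Stat2 (0.20 ± 0.26) and Mx1 (-0.84 ± 0.29) did not pass. In Ifit1 the Naive-like arrays, at 7.70, 7.42 and 8.11, stood above the Type-1 arrays at 6.93, 6.98 and 7.37 or level with them, and IELs, at 5.61, 4.91 and 5.34, were apart from both. Of 13 immunity-related and guanylate-binding GTPases, which interferon-γ induces, only Iigp1 passed and fell by 1.87 ± 0.25, and Gbp8 (1.02 ± 0.29) and Irgm2 (0.80 ± 0.30) were higher without passing.

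Promoters of the interferon-stimulated genes were searched in the 300 bases from 250 before to 50 after the start of each gene in RefSeq's table for GRCm38.p6. The letters TTTC, any 2 bases and TTTC again, a form of the interferon-stimulated response element, or their reverse complement stood in 12 of the 20 with a promoter in the table, against 3.99% of all 27025 promoters. They stood in 3 of the 4 that fell and in 9 of the 16 that did not pass, so the letters were shared by genes on either side of the test. The stretches below, each 100 bases upstream of the start, show them in capitals for 3 genes that fell and for Isg15, which did not pass.
Ifit1 (chr19:34640750-34640849, plus strand): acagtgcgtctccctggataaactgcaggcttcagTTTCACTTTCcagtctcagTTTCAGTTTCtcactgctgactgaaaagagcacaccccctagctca
Oas3 (chr5:120777680-120777779, minus strand): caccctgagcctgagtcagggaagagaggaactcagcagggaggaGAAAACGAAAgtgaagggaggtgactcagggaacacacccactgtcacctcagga
Bst2 (chr8:71537545-71537644, minus strand): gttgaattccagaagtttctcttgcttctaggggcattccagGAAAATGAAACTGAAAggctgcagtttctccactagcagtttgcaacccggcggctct
Isg15 (chr4:156200836-156200935, minus strand): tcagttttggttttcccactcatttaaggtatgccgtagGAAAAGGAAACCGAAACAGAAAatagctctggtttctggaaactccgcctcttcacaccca
All 6 GTPase genes with a promoter in the table (Igtp, Irgm1, Irgm2, Gbp3, Gbp5 and Gbp7) held the same letters, and none of the 6 passed the test. A match is a description of letters and shows no binding.

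For sterol synthesis the letters TCACNCCAC, a form of the sterol regulatory element, were found on either strand in 1 of 14 promoters, that of Hmgcs1, against 1.44% of all promoters. They are in capitals in the stretch upstream of its start, shown because no other promoter of the list held them.
Hmgcs1 (chr13:119690169-119690268, plus strand): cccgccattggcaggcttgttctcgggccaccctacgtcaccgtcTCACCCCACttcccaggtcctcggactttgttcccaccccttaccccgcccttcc
For heat shock genes, the heat shock element was searched as GAA, TTC and GAA in turn, each 2 bases from the next, or the reverse complement; it stood in 4 of 16 promoters against 0.662% of all, 2 of 7 among those that rose (Hspd1 and Hsph1) and 2 of 9 among those that did not pass (Hspe1 and Chordc1). Hspd1 and Hspe1 encode the partner chaperonins of mitochondria; Hspd1 rose by 1.77 ± 0.20 and Hspe1 did not pass (0.51 ± 0.22). In the Hspd1 stretch overlapping matches run together.
Hspd1 (chr1:55088018-55088117, minus strand): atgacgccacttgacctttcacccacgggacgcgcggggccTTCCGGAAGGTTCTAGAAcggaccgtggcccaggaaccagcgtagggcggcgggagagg
The T-box letters AGGTGTGA, which T-bet and Eomes bind, were in 1 of 20 promoters of the genes named as higher (Cd200r2) and 1 of 21 of those named as lower (Samd3), against 1.48% of all. Samd3 and Cd200r2 stood on opposite sides of the comparison.
Samd3 (chr10:26229607-26229706, plus strand): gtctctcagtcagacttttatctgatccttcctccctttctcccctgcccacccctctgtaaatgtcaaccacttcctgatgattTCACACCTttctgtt
Cd200r2 (chr16:44866902-44867001, plus strand): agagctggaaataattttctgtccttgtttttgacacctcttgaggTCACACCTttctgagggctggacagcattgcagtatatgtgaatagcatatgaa

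Some of the genes that cells induce under handling or stress rose in IELs, fewer than those that did not pass, and the number moved with the arrays used. Of 20 heat shock and chaperone genes 9 rose, none fell and the median was 0.75. Hspa1a and Hspa1b, near-identical genes for inducible HSP70, rose, the former by 2.42 ± 0.48 and the latter from 9.63, 8.30 and 7.61 in Type-1 cells to 11.44, 10.96 and 11.27 in IELs, with Type-1 replicate 1 the highest of its group in both. Dnajb1, Hsph1 and Hsp90aa1 rose by 2.11 ± 0.24, 1.94 ± 0.35 and 1.46 ± 0.23. The number that rose was 3 among the arrays without the date code and 5 without IEL replicate 1 and Type-1 replicate 3. Of 36 immediate early genes and feedback genes of NF-κB 14 rose, Dusp2 fell (-1.18 ± 0.29, lost under 9 of 24 settings) and 21 did not pass (median 0.69). Tnfaip3, the NF-κB inhibitor A20, read 8.96, 9.90 and 10.14 in IELs and 6.0, 4.96 and 6.74 in Type-1 cells, Gadd45b rose by 3.22 ± 0.29, the phosphatase gene Dusp1 by 2.81 ± 0.42, Klf6 by 2.05 ± 0.30, and Fos and Jun by 1.35 ± 0.34 and 1.35 ± 0.35. With the replicate number as a block Fos and Jun did not pass (limma adjusted p = 0.053 and 0.056). Cd69, which retains lymphocytes in tissue and is induced early after activation, did not pass (1.09 ± 0.46), nor did Nfkbia (-0.27 ± 0.22), Myc (-0.14 ± 0.24) or Egr2 (0.47 ± 0.19). The number that rose was 7 among the arrays without the date code, 7 without IEL replicate 3, 9 without IEL replicate 2 and 9 without Type-1 replicate 2. The NR4A genes, Rgs1 and these lists rose on the same arrays, which also differ in how the tissue was dissociated, and the part of dissociation was not tested.

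Some cell cycle genes were higher in IELs, and how many passed moved with the arrays used. Of 32 genes 10 rose, none fell and the median was 0.62. Mki67, which marks dividing cells, read 6.09, 7.35 and 7.82 in IELs and 4.74, 4.54 and 4.51 in Type-1 cells; Top2a, Kif11 and Ccnb2 rose by 1.38 ± 0.24, 1.47 ± 0.30 and 1.29 ± 0.23, and Cdkn1a, the inhibitor p21, by 1.66 ± 0.35. The replication genes Mcm2 to Mcm7 and Pcna did not pass, with Pcna at 0.20 ± 0.23. IEL replicate 1 was the lowest of its group in the list mean, at 5.37 against 5.79 and 6.01, with Type-1 arrays between 4.96 and 5.11. The number that rose was 1 among the arrays without the date code, 5 without IEL replicate 3, 5 without Type-1 replicate 2, 6 without Naive-like replicate 1 and 6 in a fit of the IEL and Type-1 arrays alone. The epithelial means were high on the same arrays, and their part was not tested.

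The pathways of transforming growth factor β and of the aryl hydrocarbon receptor, a sensor of dietary ligands that IELs need, gave 7 of 25 members higher, Smad3 lower (-1.59 ± 0.20) and 17 not past the test (median 0.25). Ahr rose by 2.31 ± 0.30, and Tiparp and Ahrr, which it induces and which restrain it, by 3.48 ± 0.25 and 1.38 ± 0.29. Another, dimmer row of Tiparp did not pass (0.865 ± 0.431). The classic Ahr target Cyp1a1 did not pass (-0.36 ± 0.23), nor did Cyp1b1 (-0.36 ± 0.21). Skil and Tgif1, corepressors of TGF-β signalling, rose by 1.59 ± 0.34 and 0.99 ± 0.24, while the receptor genes Tgfbr1 (-0.03 ± 0.21) and Tgfbr2 (0.15 ± 0.22) did not pass. Without IEL replicate 3 the number that rose was 4. Of 15 genes of type 17 γδ cells, the other main effector lineage, Il7r and the scavenger receptor gene Cd163l1 fell, the latter from 7.07, 6.24 and 6.78 to 4.06, 5.31 and 4.44, and none rose; with the replicate number as a block 4 fell. Il17a (0.06 ± 0.20) and Il23r (-0.84 ± 0.54) did not pass and were dim in both subsets.

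Genes outside these lists were read by family, chosen after their values were seen. Among 10 genes of the interferon-inducible p200 family 4 fell, led by Ifi214 (-2.18 ± 0.29) and Ifi213 (-1.94 ± 0.25), and the DNA sensor gene Aim2 rose (1.15 ± 0.24). Slfn5 (-2.48 ± 0.27) and Slfn1 (-1.84 ± 0.23) fell among 8 Schlafen genes. Of 20 sialyltransferases 4 rose, led by St6galnac2 (2.88 ± 0.33), and 2 fell, St6gal1 from 7.54, 6.67 and 7.92 to 4.17, 4.25 and 4.33 and St8sia6 by 1.70 ± 0.24. The branching enzyme gene Gcnt1 rose by 2.31 ± 0.25 and B4galnt2 by 2.98 ± 0.21. Solute carriers passed at 5.54%, 20 of 361, near the 5.14% of all genes. The efflux pump gene Abcb1a rose by 3.54 ± 0.28. Of 101 genes for the mitochondrial respiratory chain 2 rose and none fell, 1.98%, and of 1105 olfactory receptors, which T cells are not known to use, 3 fell and none rose, 0.271%. Ptger4, a prostaglandin E2 receptor, rose by 3.17 ± 0.30, Itgad, the αD integrin chain, by 3.46 ± 0.19, and Cish, which restrains cytokine and antigen receptor signals, by 2.46 ± 0.26 on 1 of 2 rows. Lgals1 (-2.46 ± 0.20), the lysosomal trafficking gene Lyst (-2.75 ± 0.32) and the diacylglycerol kinase gene Dgka (-1.95 ± 0.27) fell.

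Among 478 measured microRNA genes 3 rose and 5 fell, 1.67% against 5.14% of all genes, so they passed less often than genes in general. Mir340, Mir129-2 (1.76 ± 0.33, at a mean of 3.51 in IELs) and Mir3088 (1.01 ± 0.26) rose, and Mir5104, Mir342, Mir185 (-0.99 ± 0.24), Mir3087 (-0.82 ± 0.20) and Mir3073a (-0.74 ± 0.19) fell. An array row of this kind reads RNA at the gene and not the mature strand. Mir340 read 7.51, 5.97 and 7.23 in IELs, 4.25, 3.62 and 5.26 in Type-1 cells and 6.66, 7.41 and 6.29 in Naive-like cells, so the Type-1 arrays were the low ones. Mir5104 fell by 2.26 ± 0.29 and Mir342 by 1.76 ± 0.43, the latter from 7.70, 7.49 and 9.0 to 6.21, 6.03 and 6.66. Each lies within a protein gene in RefSeq's GRCm38.p6 table, Mir340 in Rnf130, Mir5104 in Zc3h12d and Mir342 in Evl, and none of these host genes passed (0.60 ± 0.28, -0.60 ± 0.31 and -0.45 ± 0.20). The mature strands that these loci encode are given as the identity of these 3 genes, whose brighter group's mean was above 4.50 and which differed most among such microRNA genes, with the seed, bases 2 to 8, in capitals; no seed is shared among them.
miR-340-5p: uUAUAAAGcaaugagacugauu
miR-340-3p: uCCGUCUCaguuacuuuauagc
miR-342-5p: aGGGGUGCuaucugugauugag
miR-342-3p: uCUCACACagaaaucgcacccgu
miR-5104: cUGUGCUAgugagguggcucagca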

How the data were processed

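RNA of 9 samples was hybridised to Affymetrix arrays, per the labels. The authors deposited log2 values; the submitters' processing notes name RMA and oligo as tools, with no version. The genome build is not given in the sources used here. RMA normalizes arrays to each other and gives no detection calls. Differences of dim genes may be compressed on such arrays. Of 41345 rows, 23521 had 1 gene symbol in the platform annotation, 1814 several and 16010 none; 22180 genes were tested, each by its row of highest mean. limma 3.58.1 in R 4.3.3 fitted 1 mean per subset over all 9 arrays (eBayes without trend, two-sided, Benjamini-Hochberg over all genes, threshold 0.05); it was checked on simulated data. No set was tested: lists are given by counts and medians beside those of all genes. The arrays' number limits the precision, with a median standard error of 0.24.

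The members, the 41 gene lists and the tests were chosen with earlier results of these data known. Named were the 25 largest differences per direction among genes that passed, with arrays that do not overlap and the brighter group's mean above 4.50, the median over genes. Predicted genes, receptor segments and non-coding genes were not eligible, except the microRNA genes, which were chosen after their values were seen; up to 6 members that passed per list and direction, or 3 where none did; members needed to account for a list; and all antibody targets. Same-numbered IEL and Type-1 replicates deviated together (correlations 0.16, 0.10 and 0.30), so the replicate number was tried as a block. Alternatives also covered normalization, filters, spread models, rows, subsets fitted, the date code and each array left out. Promoters and microRNAs are RefSeq's, for GRCm38.p6. Python 3.11.15, pandas 2.3.3, numpy 2.4.6 and matplotlib 3.10.9 were used.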

Additional observations from a re-analysis of the deposited data

How the results depend on the processing

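Over all genes the count past the test was 1140 (827 higher, 313 lower in IELs). It was 1405 (999 and 406) with the replicate block, which pairs same-numbered arrays; apart from the calls given with the results, the block over all 9 arrays changed no other named call. With the block over the IEL and Type-1 arrays alone it was 1055 (753 and 302) and 17 named genes lost their call, against 855 and 22 in the fit of those arrays without it; of these fits Klra5 lost its call in the blocked one (limma adjusted p = 0.053). Among the arrays without the date code it was 565 (414 and 151), with fewer arrays in the fit. With single arrays left out it ran from 724 to 1308, from 507 to 975 for genes higher and from 217 to 333 for genes lower. The remaining settings gave 855 to 1590 genes, within 1.5 times, the highest being without IEL replicate 1 and Type-1 replicate 3, an alternative chosen after seeing the data. A further quantile normalization gave 1247 genes, 62.8% of them higher against 72.5%.

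Of 250 named genes that passed, 184 passed under all 24 settings. Among the arrays without the date code 61 lost their call, and without IEL replicate 2, IEL replicate 3 or Type-1 replicate 2 it was 35, 37 and 34. The calls lost most often were Klrb1c (16 settings), Bcl6, Fos and Tgif1 (14 each), Jun, Mvd and Pmvk (13 each), Rgs19, Mir3073a and Mir3088 (12 each), Serpinb9 and Mir3087 (11 each), Itga4 and Mir185 (10 each), Cd200, Ccr8, Cd27, Dusp2 and Ifng (9 each), Cd3g, Zap70, Ccl5, Il4 and Mir342 (8 each) and Serpinb6b, Cxcl10, Hadh, Il21r and Itgam (6 each). The cause was not tested. Without detection calls, dim genes have no stated background.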

Other observations

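Some further genes passed the test, chosen after their values were seen. The NK receptor gene Klrb1 rose in IELs by 2.31 ± 0.25 and Cd7, an immunoglobulin-like receptor of T and NK cells, from 10.39, 10.95 and 10.96 to 12.65, 12.94 and 12.75. Clnk, an adaptor of immunoreceptor signalling, rose by 2.79 ± 0.31, Sytl3, a Rab27 effector of vesicle traffic, by 2.22 ± 0.29, and Prr5, a partner of mTOR complex 2, by 3.37 ± 0.29. Receptors and enzymes of lipid mediators rose as well, namely the leukotriene receptor gene Cysltr2 (2.38 ± 0.30) and the prostaglandin D synthase gene Hpgds (2.63 ± 0.22), besides Aoah, which deacylates lipopolysaccharide (2.02 ± 0.26). Gpr34, a receptor for lysophosphatidylserine, read 8.23, 8.22 and 8.33 in IELs and 4.43, 4.26 and 4.63 in Type-1 cells, and Napsa, an aspartic protease gene, read 7.66, 7.50 and 6.75 against 3.62, 3.53 and 3.98. Il15, which encodes a survival cytokine of IELs, fell from 5.37, 5.06 and 4.94 to 3.40, 3.46 and 3.07, and Anxa6, an annexin, fell from 8.89, 8.96 and 9.10 to 6.53, 7.39 and 7.02. Of 20 tetraspanin genes 5 rose, led by Tspan3 (1.68 ± 0.21), and Tspan32 fell (-2.49 ± 0.43). Fabp6, the bile acid carrier of ileal epithelium, rose by 2.55 ± 0.34 beside Fabp1 and Fabp2.

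Predicted genes were left out of the named genes by rule, yet a pair of them lay within the range of the largest increases: Gm6637 read 8.57, 7.78 and 6.68 in IELs against 2.39, 3.68 and 3.35, and Gm12253 7.91, 7.67 and 7.34 against 3.80, 3.71 and 3.81. Of the receptor segments, Trav9d-3 rose by 2.0 ± 0.32 on 1 of 5 rows; its arrays lay at 11.04, 11.62 and 11.39 in IELs and 9.06, 9.16 and 9.84 in Type-1 cells. Of 9 NK cell and innate lymphocyte markers Gzma, Kit and Tyrobp rose and Ncr1, Klrb1c and Eomes fell, all with values given above. Of 8 Gimap genes, GTPases of lymphocyte survival, Gimap7 rose (1.90 ± 0.24). None of 14 genes of MHC class II and antigen presentation passed in limma, against 5.14% of all genes. With the replicate number as a block 1 did. So short a list cannot show by its calls that these genes were level.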
